A study of Mus musculus with 12 samples.

Results

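The genes described here are the well-counted predicted genes of the mouse, whose symbols consist of Gm and a number. Such a symbol is a placeholder given to a gene model from annotation that has no functional name. Members were all symbols of that form with a mean of at least 50 raw counts over the 12 libraries, except Gm15441, Gm14023 and Gm16712, which were left out by the rule. Of 24552 symbols in the count table, 1205 had this form, 983 of these had no count in any library, 222 had at least 1, and 43 reached the mean of 50, which left 40 members. Of measured values, the rule used the mean count and no contrast between groups. A mean over all 12 libraries can still be reached through 1 state. Gm9199 had 12 to 32 counts in vehicle M0 and 248 to 329 in vehicle M1. Gm5901 had 99 to 135 counts in vehicle M0 and 6 to 22 in vehicle M1. Gm19557 had 111 to 148 and 24 to 29 counts in these groups, and Gm28043 had 80 to 106 and 24 to 29. Gm19582 had 98 to 162 and 25 to 63 counts, and Gm10532 had 52 to 123 and 24 to 42. The changes of such members are therefore not independent of the rule. The members with the lowest means were Gm28043 (56.8 counts), Gm5901 (57.2) and Gm10532 (57.3), and the symbols nearest below the limit were Gm7854 (47.6), Gm16897 (45.3) and Gm11201 (43.3).

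Polyadenylated RNA came from macrophages that had been grown from mouse bone marrow with M-CSF, a macrophage growth factor, at 10 ng/ml over 6 days. Cells in every group were pre-treated for 1 h with the solvent DMSO (vehicle) or with 50 nM ISRIB, an inhibitor of the integrated stress response, the pathway by which stressed cells lower protein synthesis. LPS (10 ng/ml) and IFN-γ (25 ng/ml) were then given for 16 h to obtain M1-like cells, with vehicle or ISRIB still present, and M0 denotes the cells without M1-like polarization, whose treatment over those hours is not spelled out. Crossing the states (M0, M1) with the pre-treatments (vehicle, ISRIB) gave 4 groups of 3 biological replicates. The labels give no strain, genotype, sex or age of the mice, and do not say whether replicates came from separate animals, so the p-values measure the spread between these samples, which may be technical.

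Total counts per library ran from 439976 to 514037, low totals that limit the precision of members near the limit of 50. All 10 macrophage markers examined were detected, although at low sums of 132 to 477 counts per library, and the widely expressed genes Actb (actin) and Gapdh (a glycolytic enzyme) had means of only 142.0 and 17.5 counts. Markers of T cells, B cells, neutrophils and fibroblasts summed to at most 4 counts in any library. Of 4 dendritic cell markers, Flt3 and Zbtb46 were at 0 and Siglech had a mean of 0.25 counts, while Xcr1, with a mean of 201.75 counts, took the list's sum from 6 to 17 counts in vehicle M0 to 325 to 404 counts in vehicle M1 and from 10 to 19 to 407 to 434 counts with ISRIB. The part of this shift in the results below was not tested.

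As background, many predicted genes of this kind are long non-coding RNAs, and many of those are transcribed from the strand opposite a protein-coding gene. An antisense RNA can share exon sequence with that gene, share its promoter region and run away from it, or run into its end. A stranded library keeps the strand of each RNA, and which of the paired genes a read in shared sequence is given to depends on the strand setting of the counting step. That setting is not given in the sources used here. The reads of a member and of the gene opposite it therefore cannot be told apart from the counts alone, and whether reads were given to the strand of their transcript was not tested. All levels and changes below are those of counts assigned to a symbol.

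By annotation the members were mostly such antisense genes. GENCODE M21, on build GRCm38 (mm10), located 34 of them: 20 antisense genes, 4 lincRNAs (intergenic RNAs), 4 processed transcripts, 2 transcribed processed pseudogenes, 1 bidirectional promoter lncRNA and 3 genes annotated as protein-coding, Gm5148, Gm5901 and Gm28043. RefSeq located the other 6, as 4 lncRNAs (Gm45916, Gm10677, Gm19897 and Gm17801) and 2 transcribed pseudogenes (Gm2518 and Gm9199), without exon models and, for the pseudogenes, without a strand. Each of the 34 shared exon bases with a gene on the opposite strand, from 66 to 2333 bases with a median of 411.5. For 33 that gene was protein-coding, and for 28 the shared bases included coding sequence. Of the 38 members with a known strand, 38 lay over the body of a gene on the other strand. Pseudogene symbols are uncertain in a further way, because reads from a near-identical parent gene can be assigned to them.

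To show what such an overlap is, 4 stretches are printed. On the member's strand, each holds the reverse complement of coding sequence of the gene opposite. Sequences were read from the GENCODE M21 transcripts of the members, with positions on GRCm38. They run 5′ to 3′ on the member's strand, with the bases that lie in the coding exon of the neighbour in capitals. Gm10865 lies at chr15:78994955-79011041 on the minus strand, and its middle exon, chr15:79004469-79004561, lies with all 93 of its bases in a coding exon of Triobp, which encodes an actin-binding protein. Gm19582 lies within the span of Dgkd, a diacylglycerol kinase gene, and the stretch shown, chr1:87853347-87853476 on the minus strand, shares 110 coding bases with it. Gm19557 covers a whole coding exon of Stn1, a gene of a telomere-protecting complex, in the stretch chr19:47516071-47516234 on the plus strand, with 124 shared bases. Gm16982 covers a whole coding exon of Ap2a2, a subunit of the clathrin adaptor AP-2, in the stretch chr7:141611316-141611503 on the minus strand, with 148 shared bases.
Gm10865: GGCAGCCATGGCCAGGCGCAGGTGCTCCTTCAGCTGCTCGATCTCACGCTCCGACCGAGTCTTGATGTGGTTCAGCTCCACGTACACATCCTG
Gm19582: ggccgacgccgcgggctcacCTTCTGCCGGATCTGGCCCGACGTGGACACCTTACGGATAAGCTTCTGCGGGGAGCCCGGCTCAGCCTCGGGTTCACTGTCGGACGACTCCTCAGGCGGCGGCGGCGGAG
Gm19557: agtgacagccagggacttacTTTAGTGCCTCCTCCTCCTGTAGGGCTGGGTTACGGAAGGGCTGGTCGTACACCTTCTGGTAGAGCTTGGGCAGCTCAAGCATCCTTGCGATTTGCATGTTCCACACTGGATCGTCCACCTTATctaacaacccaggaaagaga
Gm16982: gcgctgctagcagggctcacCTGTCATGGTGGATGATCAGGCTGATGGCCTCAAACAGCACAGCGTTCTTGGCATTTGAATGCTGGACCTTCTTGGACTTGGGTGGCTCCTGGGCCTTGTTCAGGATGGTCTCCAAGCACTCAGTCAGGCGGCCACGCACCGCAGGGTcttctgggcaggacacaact

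The capitals in the Gm19557 and Gm16982 stretches are bounded by splice signals that read on the neighbour's strand, AG before the exon and GT after it, and those of Gm19582 by GT after the exon. These exon boundaries therefore belong to the transcripts of Stn1, Ap2a2 and Dgkd and run through the member's own exon.

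**Figure D1:**
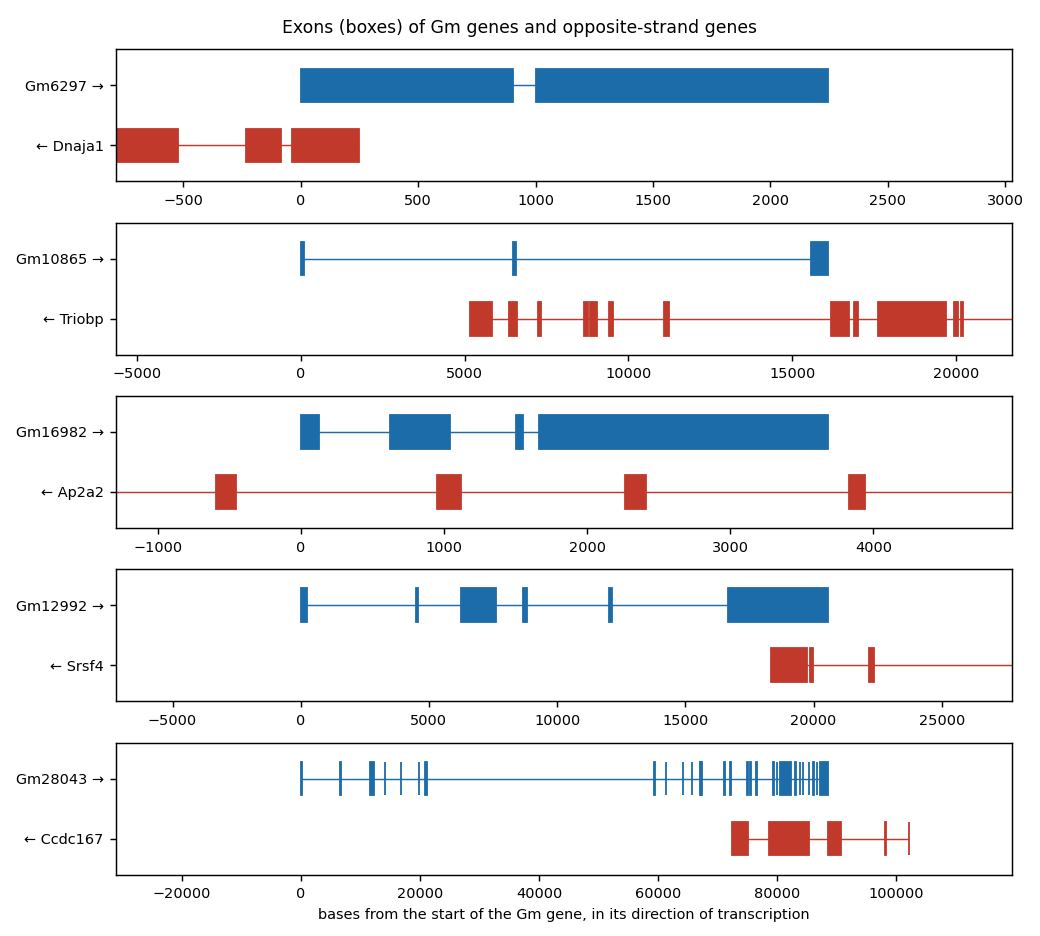
Exons (boxes) of 5 members (blue, transcribed to the right) and of the gene on the opposite strand (red, transcribed to the left); the axis gives bases from the start of the member. The pairs share exon bases at their starts (Gm6297 and Dnaja1), inside the neighbour (Gm16982 and Ap2a2) or at their ends (Gm10865 and Triobp, Gm12992 and Srsf4, Gm28043 and Ccdc167).

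Of the 34 members with exon models, 15 overlapped their main neighbour at both genes' ends, 7 at both starts and 10 lay inside the neighbour, while in 2 the neighbour lay inside the member. Pairs overlapping at their starts, where a gene given after "also" overlaps the member elsewhere, were these: Gm6297 with Dnaja1, a co-chaperone of the heat shock system; Gm10814 with Capn1, a calcium-dependent protease; Gm16861 with Nudt16l1 and also Mgrn1, an E3 ubiquitin ligase; Gm12359 with Casc3, of the exon junction complex, and also Msl1; Gm16793 with Mfhas1; Gm16740 with Gabpb2, a transcription factor subunit, and also Mllt11; and Gm5069 with Itpkb, an inositol trisphosphate kinase. Members inside a neighbour were Gm16982 (Ap2a2), Gm15350 (Atp11a, a phospholipid flippase), Gm16907 (2010111I01Rik), Gm10390 (Rbm19), Gm15471 (Dclre1b, a telomere nuclease), Gm19582 (Dgkd), Gm19557 (Stn1), Gm16796 (Pfdn4, a prefoldin subunit), Gm10532 (Ctif) and Gm5901 (Fam160a2).

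Pairs running into each other at their ends were Gm12992 with Srsf4, a splicing factor; Gm11696 with 1700096J18Rik and also Gna13, a G protein subunit; Gm10653 with Cln6; Gm10865 with Triobp; Gm10785 with Cryzl1; Gm16062 with Cops3, of the COP9 signalosome; Gm15787 with Chfr, a mitotic checkpoint ubiquitin ligase; Gm10658 with Ptpn9, a tyrosine phosphatase; Gm16973 with Mphosph8; Gm20319 with Il1rap, the accessory subunit of the IL-1 receptor; Gm11715 with Nol11; Gm19710 with Ubap2l and also Hax1; Gm16023 with Slc35e2; Gm15545 with Bcl2l12; and Gm28043 with Ccdc167. Ecsit, known from Toll-like receptor signalling, lies inside Gm16845, which also overlaps Zfp653, and the pseudogene Rps23-ps1 lies inside Gm5148. Of the members placed by RefSeq, 5 lay over Slc16a6, a monocarboxylate transporter family gene (Gm45916), Cadm1, a cell adhesion gene (Gm10677), Sirt2, a deacetylase gene (Gm19897), Taf6l (Gm2518) and the leukotriene receptor gene Cysltr2 (Gm9199). None of the 40 overlapped one of the 114 genes of a list of macrophage inflammatory and lysosomal genes on the opposite strand (0 members). This may in part be set by the rule. Txnip is on that list, and its antisense transcript Gm15441 is among the symbols left out. The result therefore holds for the 40 members and not for well-counted Gm symbols in general.

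Promoter sequences of 26 members, 27 windows of 250 bases before to 50 after the start in RefSeq, were searched on both strands for motifs of interferon, stress and core promoter factors. The STAT motif TTCNNNGAA was found in 1 member, Gm15471, against 8.30% of all 32851 promoters. The interferon response motif (GAAA, then NN, then GAAA), which 3.44% of all promoters hold, the C/EBP-ATF motif TGATGNAAT (0.965%) and the TATA box TATAAA (13.6%) were found in 0 of the members' windows. With 1 match in all, no matches overlapped, and the absence of these letters says nothing of the factors.

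The overlap with an opposite-strand exon went with the number of counts among Gm symbols in general. Of the 896 located Gm symbols with no count in any library, 75 (8.37%) had such an overlap, against 61 of 138 (44.2%) of those with counts and a mean under 10, 15 of 21 (71.4%) at a mean of 10 to under 50, and 34 of 34 members. Other genes whose mean reached 50 counts were similar: 94 of 95 located Rik symbols (clone-named genes, 98.9%) and 596 of 679 other symbols (87.8%) overlapped such an exon. Among all 24030 located symbols the share was 24.1%. Since the members were chosen by their counts, these shares are a description.

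The genes overlapping the members had few counts beside them. Members were chosen for a mean of at least 50 counts, which 836 of 24552 symbols reached. That choice by itself favours members with more counts than their neighbours. How much of the difference comes from it, and how much from the strand setting of the counting, was not tested. A main neighbour was the gene with the longest exon or span overlap. Of the 40 main neighbours, 39 are in the count table, and 38 of these had fewer counts than the member. Their median mean count was 5.58. Only 3 had a mean of 50 or more, 11 had 10 to 50, 15 had 1 to 10 and 10 had under 1 count. Gm10677, with a mean of 2218 counts, lies inside Cadm1, which had 1.00. Pfdn4, Nol11 and Cysltr2 had no count in any library, while the members overlapping them, Gm16796, Gm11715 and Gm9199, had means of 60.2, 95.9 and 151.8 counts. The exception was the pair of Gm28043 (56.8 counts) and Ccdc167 (2428 counts). Gm28043 also shares 1542 exon bases on its own strand with Rnf8 and 3390 with Cmtr1, which had means of 0.17 and 0.33 counts, so reads in those stretches cannot be told apart between the genes by strand. Gm45916 lies partly within Amz2 on its own strand, which had no count.

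**Figure D2:**
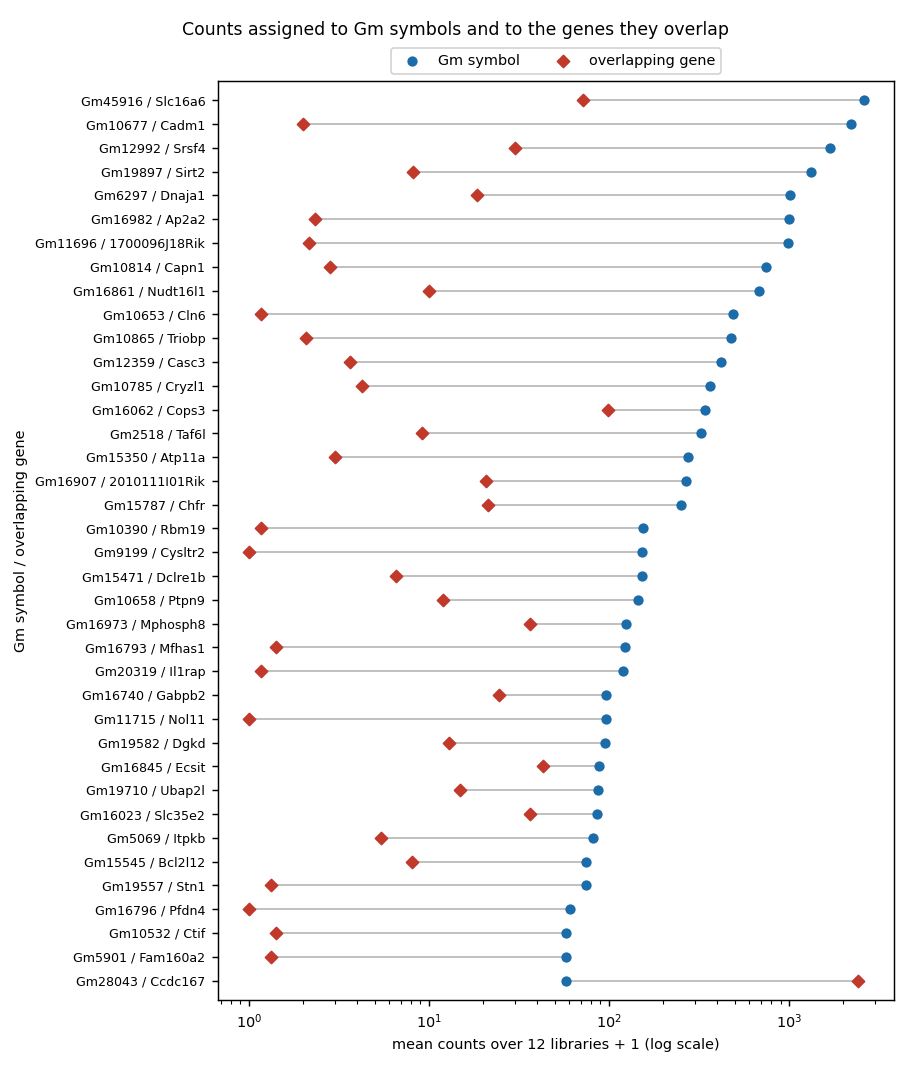
Mean raw counts over 12 libraries, plus 1, on a log axis, for each member (blue circles) and its main overlapping gene (red diamonds), for the pairs in the count table, Gm17801 left out. The red point lies to the left of the blue one in every pair shown but Gm28043 and Ccdc167, where it lies to the right.

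Member levels spanned a wide range. Mean counts had a median of 172.9 and reached 2606 in Gm45916. Of the members, 5 had a mean of at least 1000 counts, 22 of 100 to 1000 and 13 under 100. Per length, the level in vehicle M0 ran from 26.1 CPM per kb of exon in Gm16796 to 1074 in Gm16861, among the 34 with exon models (CPM are counts scaled to a common library size by TMM, a normalization for composition). In vehicle M1 the highest level per length was that of Gm10865, 2523 CPM per kb, against 607 in vehicle M0. Of a library's counts, the members together took 4.19 ± 0.0348% (SD, n = 3) in M0 and 3.29 ± 0.0987% in M1 with vehicle. With ISRIB the shares were 4.25 ± 0.0514% in M0 and 3.37 ± 0.112% in M1, and the M0 libraries all lay above the M1 libraries.

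The first comparison asks how the members differ between M1-like and resting cells. In vehicle, 24 of the 40 members differed between M1 and M0 at an adjusted p under 0.05 (edgeR quasi-likelihood test, Benjamini-Hochberg over all 2356 tested genes), 10 higher and 14 lower in M1. All 40 had passed the filter on low counts. The same call was made for 44.8% of all tested genes (24.3% higher, 20.5% lower), and for 60.3% of the 836 genes whose mean reached 50 counts (29.5% higher, 30.7% lower), so the members' share was near that of equally counted genes. The median log2 fold change was -0.17 for members and 0.01 for all tested genes. In 28 members, 13 higher and 15 lower in M1, the libraries of the groups did not overlap, as for 52.7% of tested genes (27.7% higher, 25.0% lower) and 65.2% of the 836 (32.4% higher, 32.8% lower). Among 104 equally well-counted Rik symbols 27 were higher and 31 lower, and among 23 Gm symbols with a mean of 10 to under 50 counts 4 were higher and 9 lower.

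**Figure D3:**
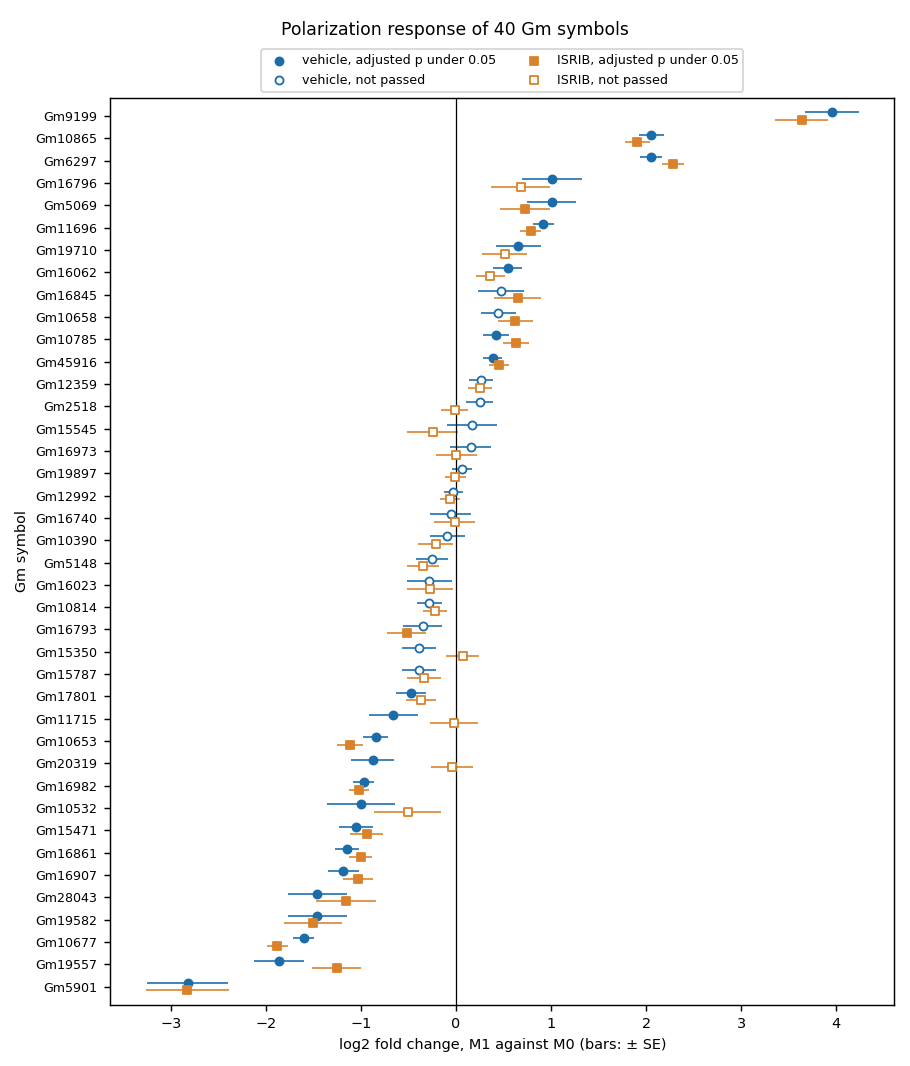
Log2 fold change, M1 against M0 (bars, ± SE), for the 40 members in vehicle (blue circles) and in ISRIB (orange squares), ordered by the vehicle value; filled symbols passed an adjusted p under 0.05. The largest rise is that of Gm9199 (3.96) and the largest fall that of Gm5901 (-2.82), and 17 members are filled in both colours.

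Gm9199, a transcribed pseudogene at chr14:73025603-73026890 over the leukotriene receptor gene Cysltr2, rose most. Its level was 22.2, 51.9 and 64.8 CPM in the vehicle M0 libraries and 621, 745 and 791 CPM in vehicle M1. All M1 libraries lay far above all M0 libraries, and the log2 fold change was 3.96 ± 0.28 (SE, adjusted p = 7.79e-12 by edgeR), or 15.5-fold. With ISRIB it was 70.7, 43.7 and 39.3 CPM in M0 and 727, 460 and 719 CPM in M1, again without overlap, with a log2 fold change of 3.64 ± 0.28 (adjusted p = 3.47e-11 by edgeR). Cysltr2 had 0 counts in every library, which leaves no count to compare. Since the strand of Gm9199 is not in the tables, whether the pair is antisense is unknown.

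The counts assigned to Gm10865, annotated opposite Triobp and with its middle exon printed above, rose 4.16-fold. Its vehicle M0 libraries had 395, 480 and 421 CPM and its vehicle M1 libraries 1856, 1776 and 1757 CPM. The M1 replicates lay close together, and the log2 fold change was 2.05 ± 0.13 (adjusted p = 1.07e-12 by edgeR). With ISRIB the levels were 447, 397 and 515 CPM in M0 and 1807, 1666 and 1630 CPM in M1, a log2 fold change of 1.91 ± 0.13. Triobp had 0 to 2 counts in the vehicle libraries, a mean of 1.08 over all 12, and was not tested.

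Gm6297, at chr4:40720154-40722398 on the minus strand, shares its first 249 bases with the start of the co-chaperone gene Dnaja1 and rose 4.14-fold. It had 789, 859 and 894 CPM in M0 and 3023, 3904 and 3591 CPM in M1 with vehicle. The log2 fold change was 2.05 ± 0.12 (adjusted p = 1.17e-13 by edgeR). With ISRIB it had 932, 851 and 787 CPM in M0 and 4152, 4290 and 4061 CPM in M1, where all libraries lay above those of vehicle M1. Dnaja1 had 56, 26 and 11 counts in vehicle M0 and 11, 13 and 15 in vehicle M1. The difference of -0.83 ± 0.56 on the log2 scale did not pass the test (adjusted p = 0.243 by edgeR).

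Gm5069, a transcribed processed pseudogene at chr1:180326970-180330550 that starts beside Itpkb, had 126, 107 and 134 CPM in vehicle M0 and 233, 242 and 262 CPM in vehicle M1. It rose by a log2 fold change of 1.00 ± 0.26 (adjusted p = 0.00277 by edgeR). In ISRIB M0 it was spread from 70.7 to 162 CPM, with 185 to 240 CPM in ISRIB M1, and the log2 fold change of 0.73 ± 0.26 (adjusted p = 0.0265 by edgeR) did not pass without ISRIB M0 replicate 1 (0.43, adjusted p = 0.195), ISRIB M1 replicate 2 (0.64, adjusted p = 0.0906) or ISRIB M1 replicate 3 (0.73, adjusted p = 0.0595).

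Gm16796, inside Pfdn4, had 92.6, 76.9 and 79.0 CPM in vehicle M0 and 95.2, 195 and 209 CPM in vehicle M1. Its groups were separated by a small gap only, since M1 replicate 1 lay just above the M0 libraries. The log2 fold change of 1.00 ± 0.32 (adjusted p = 0.0111 by edgeR) did not pass without vehicle M1 replicate 2 (0.88, adjusted p = 0.0514) or replicate 3 (0.82, adjusted p = 0.0704). With ISRIB the groups overlapped, at 95.7, 147 and 78.7 CPM in M0 and 160, 216 and 141 CPM in M1, and the log2 fold change of 0.68 ± 0.31 passed only without ISRIB M0 replicate 2 (0.98, adjusted p = 0.0257 by edgeR).

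The other members higher in vehicle M1 rose by log2 fold changes of 0.38 to 0.92. Gm45916, the most counted member, had 5199, 4434 and 4249 CPM in vehicle M0 and 6546, 5572 and 5988 CPM in vehicle M1, a small rise of 0.38 ± 0.10 (adjusted p = 0.00389 by edgeR) with no overlap. With ISRIB it rose from 5293, 4965 and 4858 CPM to 6999, 6167 and 7501 CPM. Slc16a6 opposite it had 110, 162 and 143 counts in vehicle M0 and 8, 8 and 26 in vehicle M1, and fell by 2.90 on the log2 scale (adjusted p = 8.39e-07 by edgeR), so the pair moved in opposite directions. Gm11696, with 1463 ± 120 CPM (SD, n = 3) in vehicle M0 and 2759 ± 136 CPM in vehicle M1, rose by 0.92 ± 0.11. Gm19710 (0.66 ± 0.23) and Gm16062 (0.54 ± 0.15) also passed.

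Gm10785, opposite Cryzl1, a gene related to quinone oxidoreductases, had 736, 737 and 691 CPM in vehicle M0 and 1077, 894 and 923 CPM in vehicle M1. The log2 fold change was 0.42 ± 0.14 (adjusted p = 0.0154 by edgeR). The call was lost without vehicle M0 replicate 3 (0.39, adjusted p = 0.0621) or vehicle M1 replicate 1 (0.35, adjusted p = 0.0888).

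Among the members that were lower in M1, Gm5901 changed most. It is annotated as a protein-coding gene at chr7:105375038-105378377 on the plus strand, and all 1181 of its exon bases lie over exons of Fam160a2 on the other strand. Its vehicle M0 libraries had 183, 242 and 219 CPM and its vehicle M1 libraries 20.03, 56.5 and 14.4 CPM. No library overlapped, and it fell by 2.82 on the log2 scale (SE 0.42, adjusted p = 4.95e-06 by edgeR), 7.08-fold. In ISRIB the levels were 158, 167 and 204 CPM in M0 and 47.5, 8.98 and 18.7 CPM in M1, with counts of 19, 4 and 8 behind the last values. Fam160a2 had a mean of 0.33 counts.

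Gm19557, which carries the whole Stn1 exon printed above, had 206, 265 and 247 CPM in vehicle M0 and 65.1, 61.7 and 69.7 CPM in vehicle M1. It fell by 1.86 on the log2 scale (SE 0.27, adjusted p = 2.53e-06 by edgeR), or 3.64-fold. In ISRIB it had 158, 262 and 178 CPM in M0 and 82.5, 85.3 and 82.0 CPM in M1, a fall of 1.26 on the log2 scale (SE 0.26). Stn1 had 1 count in all vehicle libraries together and a mean of 0.33 over the 12.

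Gm10677, a lncRNA at chr9:47799160-47818208 inside Cadm1, was the second most counted member and fell 3.04-fold. Vehicle M0 libraries had 6932, 6197 and 7111 CPM and vehicle M1 libraries 2534, 2023 and 2094 CPM. The log2 fold change was -1.61 ± 0.11 (adjusted p = 5.40e-12 by edgeR). With ISRIB it went from 7338, 6427 and 7057 CPM to 1797, 2112 and 1745 CPM, -1.88 ± 0.11 on the log2 scale. Cadm1 had at most 5 counts in a library.

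Gm19582, inside Dgkd, had 182, 290 and 314 CPM in vehicle M0 and 62.6, 69.4 and 151 CPM in vehicle M1. The gap between the groups was small, because M1 replicate 3 lay near the lowest M0 library, and the log2 fold change was -1.46 ± 0.31 (adjusted p = 0.000416 by edgeR). With ISRIB it had 239, 262 and 401 CPM in M0 and 77.5, 114 and 124 CPM in M1, -1.51 ± 0.31 on the log2 scale. Dgkd had a mean of 11.9 counts, and its log2 fold change of -1.22 ± 0.68 in vehicle did not pass the test (adjusted p = 0.153 by edgeR).

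Gm28043, opposite Ccdc167, had 193, 143 and 215 CPM in vehicle M0 and 72.6, 69.4 and 57.7 CPM in vehicle M1, a log2 fold change of -1.46 ± 0.31 (adjusted p = 0.000424 by edgeR). Its ISRIB libraries had 102, 160 and 172 CPM in M0 and 52.5, 89.8 and 51.5 CPM in M1. Ccdc167 went the other way, from 1551, 1232 and 1300 counts in vehicle M0 to 3472, 3218 and 3428 in vehicle M1, a log2 fold change of 1.71 ± 0.11 (adjusted p = 1.86e-12 by edgeR). It is the only main neighbour with more counts than the member.

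The other 9 members that fell in vehicle M1 did so by 0.47 to 1.19 on the log2 scale. Gm16907 (-1.19 ± 0.16), Gm16861 (-1.15 ± 0.13), Gm15471 (-1.05 ± 0.18), Gm16982 (-0.97 ± 0.11) and Gm10653 (-0.85 ± 0.13) were lower with and without ISRIB. Gm16982, whose Ap2a2 exon is printed above, had 2606 ± 111 CPM (SD, n = 3) in M0 and 1327 ± 21.3 CPM in M1 with vehicle, and 2854 ± 154 and 1402 ± 128 CPM with ISRIB. Gm10532 (-0.998 ± 0.36), Gm20319 (-0.88 ± 0.23), Gm11715 (-0.66 ± 0.26) and Gm17801 (-0.47 ± 0.16) passed in vehicle. Gm10532 had a small gap only, with 150, 220 and 105 CPM in vehicle M0 and 75.1, 61.7 and 101 CPM in vehicle M1. Gm11715 had 339, 211 and 166 CPM in vehicle M0 and 155, 144 and 154 CPM in vehicle M1, also with a small gap.

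**Figure D4:**
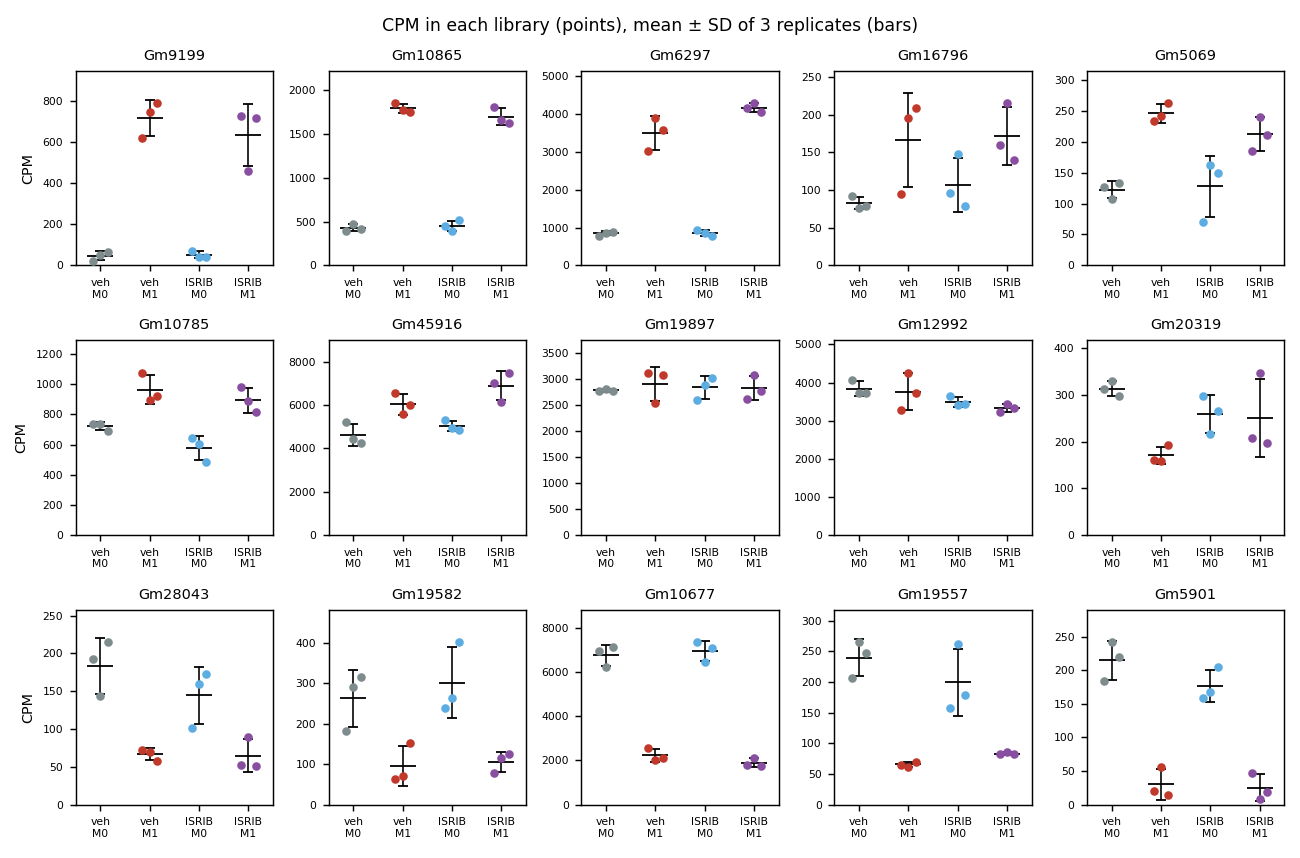
CPM in each library (points) with the mean and SD of 3 replicates (black lines) in the 4 groups, for the 15 members given library by library. In Gm9199, Gm10865 and Gm6297 all M1 points lie above all M0 points with either pre-treatment, in Gm10677, Gm19557 and Gm5901 all lie below, and in Gm12992 and Gm19897 the groups overlap between M0 and M1 in vehicle.

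Among the 5 most counted members, 2 did not pass in either polarization contrast. Gm12992, which overlaps the end of the splicing factor gene Srsf4 over 1532 exon bases, had 4058, 3722 and 3714 CPM in vehicle M0 and 3278, 4259 and 3733 CPM in vehicle M1, overlapping groups with a log2 fold change of -0.03 ± 0.10 (adjusted p = 0.842 by edgeR). With ISRIB it had 3636, 3404 and 3424 CPM in M0 and 3225, 3446 and 3330 CPM in M1. Gm19897, inside the deacetylase gene Sirt2, had 2774, 2822 and 2776 CPM in M0 and 3130, 2539 and 3077 CPM in M1 with vehicle. With ISRIB it had 2610, 2898 and 3027 CPM in M0 and 2625, 3080 and 2784 CPM in M1. Its log2 fold changes were 0.06 ± 0.11 and -0.01 ± 0.11. For both members the sign of such a small value depended on the scaling. The remaining members that passed in neither polarization contrast were Gm10814, Gm12359, Gm5148, Gm2518, Gm15350, Gm15787, Gm10390, Gm16973, Gm16740, Gm16023 and Gm15545, with vehicle log2 fold changes between -0.39 and 0.26.

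With ISRIB present, 20 members differed between M1 and M0, 9 higher and 11 lower, against 44.8% of tested genes (23.9% higher, 20.9% lower) and 60.3% of the 836 (29.8% higher, 30.5% lower). Both lists shared 17 members, all in the same direction: 17 of the 24 called in vehicle and 17 of the 20 called in ISRIB. The shared 7 that rose were Gm45916, Gm6297, Gm11696, Gm10865, Gm10785, Gm9199 and Gm5069. Those that passed in vehicle only were Gm16062, Gm19710, Gm16796, Gm17801, Gm20319, Gm11715 and Gm10532, and those that passed in ISRIB only were Gm10658 (0.62 ± 0.19), Gm16845 (0.65 ± 0.25) and Gm16793 (-0.52 ± 0.20). A call in 1 arm only does not show a difference between the arms. The interaction, which tests it, passed in 0 members by edgeR and 0 by DESeq2, with 1 member, Gm20319, at an unadjusted p under 0.05, against 7.09% of tested genes.

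Among the neighbours, 18 main ones had enough counts to be tested, and 6 passed in vehicle, where 44.8% of all tested genes did. Ccdc167 and Ubap2l (3.07 ± 0.63, adjusted p = 0.000286 by edgeR) were higher in M1, and Slc16a6 (-2.90), Bcl2l12 (-2.77 ± 1.11), Gabpb2 (-1.34 ± 0.53) and Ecsit (-1.11 ± 0.40) were lower. In 3 pairs both genes passed: Gm19710 and Ubap2l were both higher, while Gm28043 and Ccdc167, and Gm45916 and Slc16a6, moved oppositely. Gm15545, Gm16740 and Gm16845, opposite Bcl2l12, Gabpb2 and Ecsit, did not pass in vehicle (log2 fold changes of 0.17, -0.06 and 0.47). With ISRIB, Ccdc167, Ubap2l, Slc16a6, Gabpb2 and Ecsit passed again in the same direction and Bcl2l12 did not (-2.89, adjusted p = 0.0522 by edgeR), while Cops3 (0.93, adjusted p = 0.00276 by edgeR) and Taf6l (-3.36, adjusted p = 0.0108 by edgeR) passed there. Gm16062 opposite Cops3 and Gm2518 over Taf6l did not pass with ISRIB (0.36 and -0.02), and Gm16845 (0.65) was higher where Ecsit (-1.39) was lower.

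The second comparison asks whether ISRIB altered the members within a state. No member passed in M1 or in M0 (0 by edgeR and 0 by DESeq2), as for 0.0% of the tested genes by edgeR. At an unadjusted p under 0.05 there were 3 members in M1, against 5.69% of tested genes, and 1 in M0, against 6.07%. Log2 fold changes, ISRIB against vehicle, ran from -0.43 (Gm15545) to 0.56 (Gm20319) in M1 and from -0.34 (Gm28043) to 0.37 (Gm16796) in M0, with standard errors of 0.10 to 0.51 and 0.10 to 0.35. Libraries did not overlap for 7 members in M1, 6 higher and 1 lower with ISRIB, and for 4 in M0, 1 higher and 3 lower, where the share over all tested genes was 11.6% in M1 (5.39% higher, 6.2% lower) and 11.3% in M0 (5.56% higher, 5.73% lower). These contrasts share their vehicle samples with the vehicle polarization contrast.

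Gm20319, which overlaps the end of the IL-1 receptor accessory gene Il1rap over 552 exon bases, had the lowest unadjusted p in M1 and in the interaction. With vehicle its libraries had 313, 329 and 298 CPM in M0 and 160, 159 and 192 CPM in M1. With ISRIB they had 297, 216 and 266 CPM in M0 and 207, 348 and 197 CPM in M1. ISRIB M1 replicate 2 stood above the other M1 libraries. In vehicle it fell by 0.88 on the log2 scale in M1 (SE 0.23, adjusted p = 0.00263 by edgeR), and in ISRIB the value was -0.05 ± 0.22. ISRIB against vehicle in M1 gave 0.56 ± 0.23 (adjusted p = 0.806 by edgeR), which was 0.26 without ISRIB M1 replicate 2. The interaction of 0.83 ± 0.32 (adjusted p = 0.528 by edgeR) was 0.52 without that library. Il1rap had 2 counts in 1 library and 0 in the others.

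The lowest unadjusted p in M0 was that of Gm10785, with 643, 604 and 487 CPM in ISRIB M0 against 736, 737 and 691 CPM in vehicle M0. The groups did not overlap, and the log2 fold change was -0.32 ± 0.14 (adjusted p = 0.711 by edgeR). Without ISRIB M0 replicate 3 it was -0.20. In M1 its levels overlapped, 980, 889 and 815 CPM with ISRIB against 1077, 894 and 923 CPM with vehicle. Cryzl1 had a mean of 3.25 counts. The other members at an unadjusted p under 0.05 were Gm6297 (0.25 ± 0.11, adjusted p = 0.817 by edgeR) and Gm10677 (-0.23 ± 0.11, adjusted p = 0.831 by edgeR), both in M1.

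**Figure D5:**
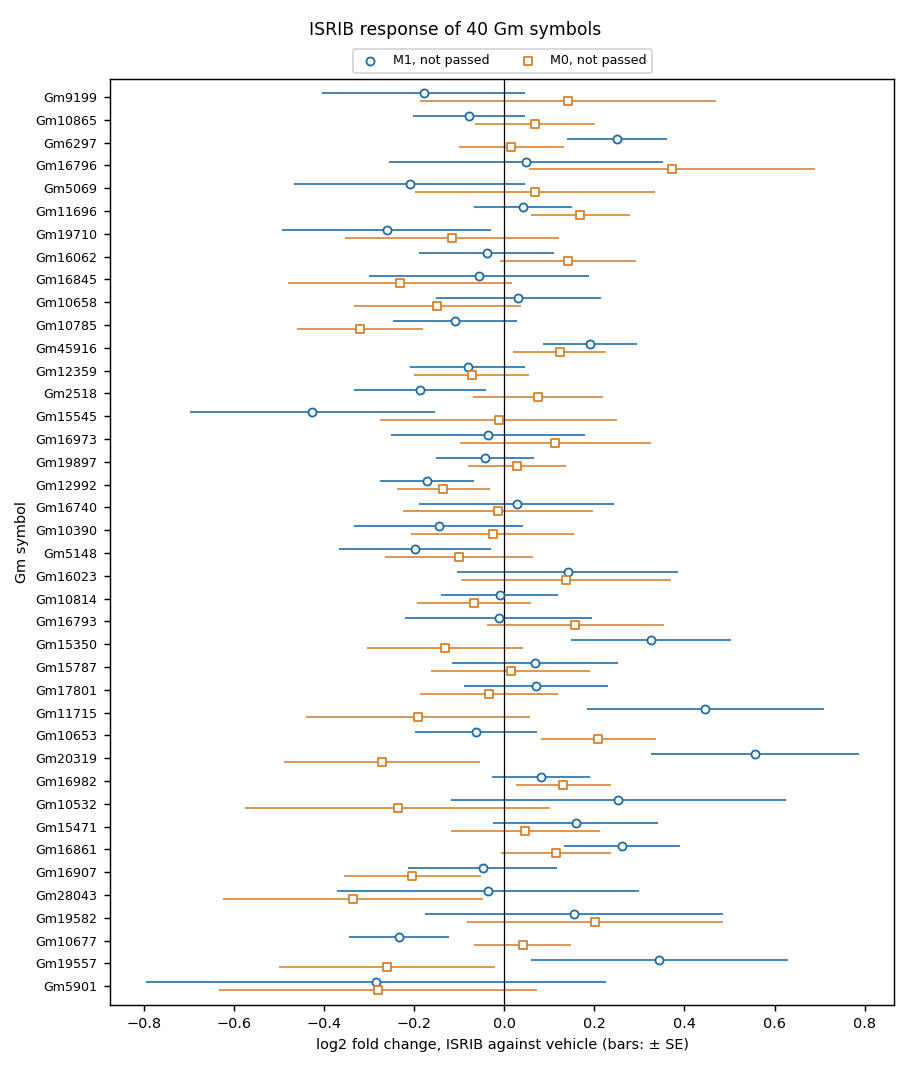
Log2 fold change, ISRIB against vehicle (bars, ± SE), for the 40 members in M1 (blue circles) and in M0 (orange squares), in the order of the polarization plot. All symbols are open because 0 members passed an adjusted p under 0.05, and the values lie between -0.43 and 0.56.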

How the data were processed

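Per the labels, strand-specific TruSeq mRNA libraries of polyadenylated RNA were sequenced on an Illumina NovaSeq. Raw read counts for each gene symbol, as whole numbers, were deposited. FastQC, HTSeq, DESeq2 and build mm10 are named, without versions, per the submitters' processing notes; the strand setting of the counting is not given in the sources used here. Groups and replicate numbers came from the sample titles.

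Counts were analysed as deposited in R 4.3.3 with edgeR 4.0.16: filterByExpr (minimum count 10, minimum total 15) kept 2356 genes with 97.6% of counts, TMM scaling, 1 mean per group over all 12 samples, quasi-likelihood tests of 5 contrasts, Benjamini-Hochberg adjustment over all tested genes, threshold 0.05. The common coefficient of biological variation was 0.275. Each standard error (SE) was derived from the test, as the size of the log2 fold change over the square root of the F value. It was not estimated directly. In counts simulated for the vehicle comparison of 2356 genes, 88% of 4-fold and 26% of 2-fold changes were recovered and 0.0464% of unchanged genes were called. The simulation gave every tested gene the common variation, so these shares do not give the recovery for the well-counted members.

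Neighbours were genes sharing at least 1 exon base on the other strand in GENCODE M21, or, for RefSeq-located members, overlapping spans. Given library by library were the 5 largest rises and falls in vehicle, the 5 most counted members and the lowest p in each ISRIB contrast and the interaction, 15 members in all. The members, gene lists and tests were chosen with earlier results of these data known. Alternatives were DESeq2 (1.42.0) size factors and Wald test, other filters, a replicate block, only the compared groups, a minimum fold change, and each library left out. The second deposited table, of log2 values, was not used. The gene opposite 1 member, Gm17801, is not reported here.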

Additional observations from a re-analysis of the deposited data

How the results depend on the processing

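The counts of members past the threshold kept within 1.5 times their value under every alternative run but the minimum log2 fold change of 1 in size, which left 13 of 24 in vehicle (5 higher, 8 lower) and 12 of 20 in ISRIB (3 higher, 9 lower). Leaving out each library gave 21 to 25 members in vehicle, 17 to 21 in ISRIB and 0 to 0 in the ISRIB contrasts and the interaction. Without a filter on low counts they were 19 and 16. With the replicate number as a block they were 25 and 21, with 0 in the ISRIB contrasts and the interaction. Deviations of same-numbered samples correlated at -0.06 to 0.11, not above 0.1 in every pair, and the labels state no shared animal. The samples were therefore not treated as paired. Library names run consecutively over the 4 groups within each replicate number, and what this order means is not stated. As a hint from the data towards pairing, samples correlated best with their own number in 6 of 6 cases in the ISRIB polarization contrast and in 6 of 6 for ISRIB against vehicle in M0, but in 2 of 6 in each of the other 2 contrasts, where chance gives about 1 in 3.

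Near-zero log2 fold changes reversed sign. Gm12992 in vehicle was 0.00038 with DESeq2 size factors and 0.00035 by the DESeq2 Wald test, and with a library left out -0.12 to 0.073. Gm19897 in ISRIB was 0.035 with DESeq2 size factors, 0.035 by the Wald test, 0.0050 with only the compared groups and -0.081 to 0.037 with a library left out, and in vehicle -0.026 without a filter. Gm20319 in ISRIB was -0.34 to 0.097 with a library left out. The cause was not tested. Without a filter, where more genes were tested, Gm10785 in vehicle (adjusted p = 0.272 by edgeR) and Gm5069 in ISRIB (adjusted p = 0.135 by edgeR) no longer passed. A mean limit of 25 counts would give 51 members and of 100 counts 27. The libraries' total counts limit the members with few counts, such as Gm5901 in M1.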
